A study of Homo sapiens with 3 samples.

Results

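The 10 genes described here are YAP and TEAD target genes and their feedback partners: CCN1, CCN2, ANKRD1, AMOTL1, AMOTL2, AXL, LATS2, AJUBA, TEAD1 and PTPN14. The rule took them by name, with no threshold on their values, and all 10 were found among the 28890 genes of the table. They were measured by RNA sequencing in Cal-33, an established cell line from a human tongue squamous cell carcinoma. Cells labelled wild type were transfected with an siRNA (small interfering RNA) against p53 (sip53), an siRNA against BACH1 (siBACH1) or a control siRNA (siControl), and RNA was taken 72 h later. All 3 libraries share the transfection and the time. Each group is 1 library, so no difference given below has a replicate check, and no test, p-value or SD can be given.

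YAP (encoded by YAP1) and its relative TAZ (encoded by WWTR1) are coactivators that carry no DNA-binding domain and act through the TEAD transcription factors. The Hippo kinases MST1 and MST2 activate LATS1 and LATS2, which phosphorylate YAP and TAZ and keep them out of the nucleus. Several YAP and TEAD targets encode inhibitors of YAP, which gives the pathway negative feedback. In squamous epithelia the pathway is known for its link to cell crowding, stiffness of the matrix and proliferation of basal cells.

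TEAD proteins bind the short sequence GGAATG, and its reverse complement CATTCC on the other strand. Promoter windows of RefSeq genes on GRCh38.p14, 250 bases before to 50 bases after each start, were at hand for 8 of the 10 genes, with 11 windows in all. The core was present on either strand in 7 of the 11 windows, and in 14.0% of all 35116 windows of that length. The 7 windows belonged to 7 of the 8 genes. Because the genes are listed as YAP and TEAD targets, their share of windows with the core is no independent result. CCN2 held 3 copies and ANKRD1 held 2, and no other window of these genes held more than 1. These 2 promoters are shown because they carry the most copies and belong to the genes with the lowest transcript levels of the set. The first is chr6:131951373-131951622, minus strand, and the second chr10:90921088-90921337, minus strand. Both are written 5′ to 3′ along the gene up to the base before the start, with the TEAD core in capitals.
CCN2: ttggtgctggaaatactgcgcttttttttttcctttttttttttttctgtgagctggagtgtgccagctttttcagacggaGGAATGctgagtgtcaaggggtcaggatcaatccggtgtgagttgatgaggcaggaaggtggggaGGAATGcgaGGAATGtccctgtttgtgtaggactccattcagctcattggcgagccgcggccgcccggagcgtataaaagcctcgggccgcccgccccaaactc
ANKRD1: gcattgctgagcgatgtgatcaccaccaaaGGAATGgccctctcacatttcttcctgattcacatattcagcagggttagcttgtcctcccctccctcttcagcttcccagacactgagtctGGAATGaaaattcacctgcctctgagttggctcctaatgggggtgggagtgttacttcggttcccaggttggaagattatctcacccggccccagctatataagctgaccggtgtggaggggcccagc
The CCN2 copies begin 169, 104 and 95 bases before the start, and the ANKRD1 copies 220 and 128 bases before it. The AP-1 site TGACTCA, searched on both strands, matched none of the 11 windows, against 4.95% of all windows. The core of the antioxidant response element to which BACH1 binds with its partners, TGACNNNGC on either strand, matched 1 window each of LATS2 and AXL, against 13.3% of all windows. These matches describe the letters in the windows and do not show that a factor binds there.

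The deposited values are TPM (transcripts per 1000000), which are scaled by transcript length, so levels of different genes can be set side by side. The depth behind them is unknown. Differences are log2 ratios taken after 1 TPM was added to each value, which shrinks them in weakly expressed genes, and a ratio is the plain ratio of TPM. A gene counted as measured in a comparison where it reached 1 TPM in 1 or both libraries, and as past the threshold at a 1.5-fold difference (log2 0.58). Of the 10 genes, 8 were measured in every comparison, while CCN2 and ANKRD1 stayed under 1 TPM in all 3 libraries. The listed values summed to between 978371 and 979148 TPM per library, and between 12113 and 12198 genes reached 1 TPM.

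The BACH1 transcript was at 4.30 TPM in siBACH1 and 19.6 TPM in sip53, against 15.2 TPM in siControl. The p53 target CDKN1A, which encodes the cell cycle inhibitor p21, was at 51.7 TPM in sip53 and 54.7 TPM in siControl. MDM2, a p53 target that encodes its ubiquitin ligase, was at 33.9 TPM in sip53 and 30.3 TPM in siControl. These targets did not mark the library labelled sip53 by a lower level, so directions drawn from it rest on its label. The squamous marker list (KRT5, KRT14, KRT6A, TP63, CDH1, EPCAM, SFN and DSG3) was at 1 TPM or more for 8 of 8 genes in all libraries. Of 8 fibroblast markers, 2 reached 1 TPM in any library, COL1A1 at most 4.36 TPM and DCN at 1.12 TPM in siBACH1. Of 5 endothelial markers, 2 reached it, VWF and CDH5 (17.0 TPM in sip53, 18.7 TPM in siBACH1 and 16.0 TPM in siControl). Of 5 immune markers, 1 did, CD68, while PTPRC stayed at or below 0.196 TPM.

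The 10 genes differed widely in level. AJUBA and AMOTL1 were the highest in every library and ANKRD1 the lowest. In siControl the order from high to low was AJUBA, AMOTL1, AMOTL2, CCN1, TEAD1, PTPN14, LATS2, AXL, CCN2 and ANKRD1. The order was the same in sip53, and in siBACH1 only TEAD1 and CCN1 changed places. With 1 library per group, no spread is known by which to tell neighbours in this order apart.

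**Figure D1:**
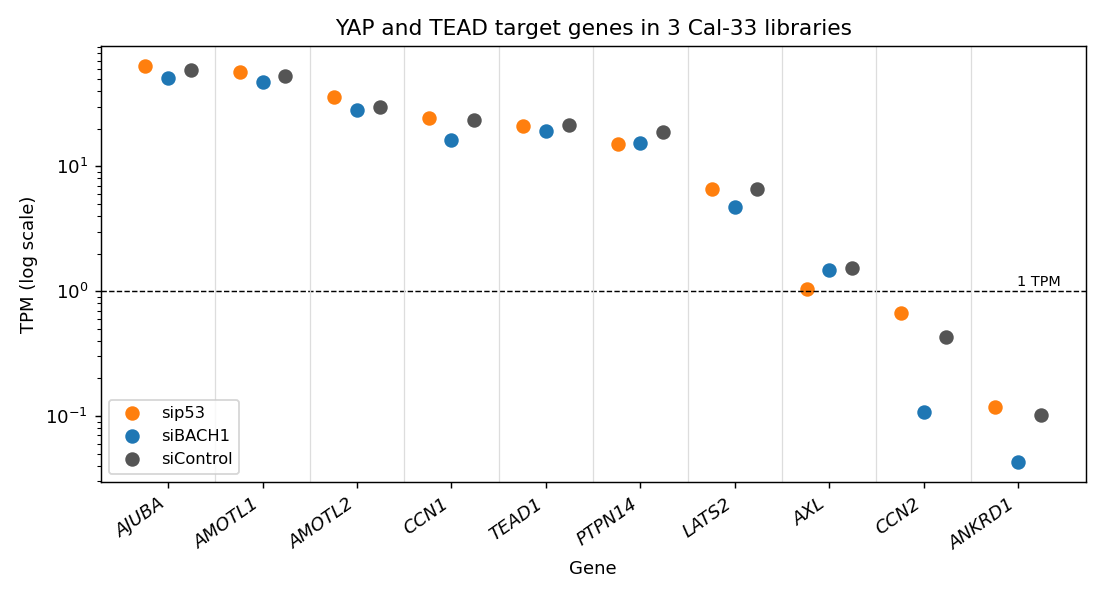
TPM (log axis) of the 10 genes in the sip53, siBACH1 and siControl libraries, 1 point per library, with genes ordered by their siControl level. AJUBA lies between 51.0 and 63.7 TPM, while CCN2 and ANKRD1 lie under the dashed line at 1 TPM in all 3 libraries.

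The secreted matrix-associated proteins CCN1 and CCN2 are the most widely used readouts of YAP activity. CCN1 (also called CYR61; chromosome 1, 85580761 to 85583950, plus strand, GRCh38.p14, protein-coding) was at 24.5 TPM in sip53 and 16.3 TPM in siBACH1, against 23.5 TPM in siControl. The sip53 and siControl values lay close together and the siBACH1 value lay below both. The log2 difference was 0.06 in sip53 and -0.50 in siBACH1, a TPM ratio to siControl of 0.693 in siBACH1. In that comparison 7.85% of all measured genes had an absolute difference at least as large as that of CCN1.

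CCN2 (also called CTGF; chromosome 6, 131948176 to 131951372, minus strand) was at 0.671 TPM in sip53 and 0.107 TPM in siBACH1, against 0.427 TPM in siControl. These levels were very low beside those of its paralog CCN1 in the same libraries, and siBACH1 had the lowest of the 3. The TPM ratio to siControl was 1.57 in sip53 and 0.250 in siBACH1, from values under 1 TPM whose read support is unknown. On the log2(TPM + 1) scale the differences were 0.23 and -0.37. Among other CCN genes, CCN5 was at 1.14 TPM in sip53 and 1.49 TPM in siBACH1, against 1.56 TPM in siControl, CCN3 and CCN4 stayed under 1 TPM in all libraries, and CCN6 was listed at 0.

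ANKRD1 (chromosome 10, 90912096 to 90921087, minus strand) encodes a nuclear ankyrin repeat protein that is abundant in stressed heart muscle and is another common YAP readout. It was at 0.119 TPM in sip53 and 0.0427 TPM in siBACH1, against 0.102 TPM in siControl. In siControl 48.2% of all listed genes had a lower value, many of them at 0. Its relative ANKRD2 was at 6.33 TPM in sip53 and 6.37 TPM in siBACH1, against 7.45 TPM in siControl.

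AXL (chromosome 19, 41219223 to 41261766, plus strand) encodes a receptor tyrosine kinase whose ligand is GAS6. AXL was at 1.04 TPM in sip53 and 1.49 TPM in siBACH1, against 1.53 TPM in siControl. It was the only one of the 8 measured members that stayed under 2 TPM in all 3 libraries, with the lowest value in sip53. Its log2 difference was -0.31 in sip53 and -0.02 in siBACH1. At this low level the sip53 value depended on the pseudocount, at -0.51 with 0.1 TPM and -0.11 with 5 TPM. The related receptor TYRO3 stood higher, at 12.2 TPM in sip53 and 11.3 TPM in siBACH1, against 14.0 TPM in siControl. MERTK, another related receptor, was nearly as low as AXL, at 1.63 TPM in sip53 and 2.11 TPM in siBACH1, against 1.88 TPM in siControl. GAS6 was at 28.6 TPM in sip53 and 32.9 TPM in siBACH1, against 37.4 TPM in siControl.

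The angiomotin-like proteins AMOTL1 and AMOTL2 bind YAP at cell junctions and on actin and hold it in the cytoplasm. AMOTL1 (chromosome 11, 94706460 to 94876748, plus strand) was at 56.3 TPM in sip53 and 47.1 TPM in siBACH1, against 53.2 TPM in siControl. AMOTL2 (chromosome 3, 134355345 to 134375417, minus strand) was at 35.5 TPM in sip53 and 28.2 TPM in siBACH1, against 29.6 TPM in siControl. Both had their highest value in sip53 and their lowest in siBACH1, with log2 differences of 0.08 and 0.25 in sip53, and of -0.17 and -0.07 in siBACH1. The sign for AMOTL2 in siBACH1 turned to 0.01 when TPM were rescaled to a median ratio of 1. AMOT, the founding member of the family, was far lower, at 2.28 TPM in sip53 and 1.45 TPM in siBACH1, against 1.53 TPM in siControl.

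LATS2 (chromosome 13, 20973036 to 21061586, minus strand) is the Hippo kinase that phosphorylates YAP and is itself induced by it. LATS2 was at 6.57 TPM in sip53 and 4.76 TPM in siBACH1, against 6.52 TPM in siControl. The sip53 and siControl values nearly coincided, and the siBACH1 value lay below both, at a log2 difference of -0.38 from siControl. Its sister kinase LATS1 was at 9.37 TPM in sip53 and 8.56 TPM in siBACH1, against 9.69 TPM in siControl, log2 differences of -0.04 and -0.16.

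AJUBA (chromosome 14, 22971177 to 22982551, minus strand) encodes a LIM domain protein that binds LATS kinases and restrains them. AJUBA was at 63.7 TPM in sip53 and 51.0 TPM in siBACH1, against 59.0 TPM in siControl, log2 differences of 0.11 and -0.21. Its relatives LIMD1 and WTIP were lower in level, at 5.89 and 1.59 TPM in siControl. WTIP was at 2.27 TPM in sip53 and 0.840 TPM in siBACH1, log2 differences of 0.33 and -0.49 against siControl. Between the knockdowns WTIP differed by -0.83, past 1.5-fold, a call lost with a pseudocount of 5 TPM. Of 10 measured relatives of the 10 genes, WTIP was the only 1 past 1.5-fold there, against 6.02% of all measured genes. From 1 of 10 no result about the relatives can be drawn.

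PTPN14 (chromosome 1, 214348700 to 214551602, minus strand) encodes a tyrosine phosphatase that binds YAP and limits its activity, and it is also known as a p53 target. PTPN14 was at 15.0 TPM in sip53 and 15.4 TPM in siBACH1, against 18.8 TPM in siControl. It differed from the other feedback genes in that the knockdown libraries lay together below siControl, at log2 differences of -0.30 in sip53 and -0.27 in siBACH1. In the sip53 comparison 14.9% of all measured genes lay as low or lower. The related phosphatase PTPN21 was at 3.32 TPM in sip53 and 2.42 TPM in siBACH1, against 3.14 TPM in siControl. Over all relatives of the 10 genes, 0 of 10 measured passed 1.5-fold in either knockdown, against 4.42% of all measured genes in sip53 and 5.47% in siBACH1, with medians of -0.16 in sip53 and -0.19 in siBACH1. With a pseudocount of 0.1 TPM, 1 of them was past it in sip53 and 2 in siBACH1, all lower. ANKRD23, a muscle ankyrin repeat gene near 1 to 2 TPM, was at -0.44 in sip53 and -0.42 in siBACH1.

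TEAD1 (chromosome 11, 12674421 to 12944737, plus strand) encodes one of the TEAD factors. TEAD1 was at 20.9 TPM in sip53 and 19.3 TPM in siBACH1, against 21.2 TPM in siControl, and the 3 values lay close together. Its log2 differences were -0.02 in sip53, which turned to 0.05 after rescaling, and -0.13 in siBACH1. The other TEAD genes were at similar levels in siControl, TEAD2 at 32.4 TPM, TEAD3 at 22.2 TPM and TEAD4 at 17.1 TPM. TEAD4 was at 13.3 TPM in sip53 and 15.6 TPM in siBACH1, differences of -0.34 and -0.13.

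In the p53 knockdown, 0 of the 8 measured members passed the 1.5-fold threshold, against 4.42% of the 12412 measured genes. At 2-fold the count was also 0, against 0.967%. The log2 differences lay between -0.31 (AXL) and 0.25 (AMOTL2), 5 of 8 were positive, and the median was 0.03. Over all measured genes 36.9% were positive and the median was -0.07. In the same comparison AMOTL2 lay highest of the members, and 7.91% of measured genes lay as high or higher. At a background share of 4.42%, a count of 0 in 8 genes is no result about them.

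In the BACH1 knockdown, 0 of the 8 measured members passed the 1.5-fold threshold, against 5.47% of the 12437 measured genes, and 0 passed 2-fold, against 1.43%. All 8 differences were negative, between -0.50 (CCN1) and -0.02 (AXL), with a median of -0.19. Over all measured genes 66.1% were negative and the median was -0.08. After rescaling to a median ratio of 1, AMOTL2 and AXL were positive, at 0.01 and 0.03, and the members' median was -0.11. CCN1 and LATS2 lay lowest, and 5.42% and 10.1% of measured genes lay as low or lower. Squamous markers were lower in the same library, 8 of 8 with a negative difference, from -1.10 (KRT14) to -0.08 (EPCAM). Their median was -0.48, and -0.40 after rescaling. Their summed levels were 4610 TPM in siBACH1 and 7190 TPM in siControl, of which KRT5 alone held 3100 and 4880 TPM. In sip53, 6 of 8 were negative, with a median of -0.12 and a sum of 6380 TPM. Mitochondrially encoded genes took 28.2% of TPM in siBACH1 and 24.8% in siControl (29.2% in sip53), and without them and the ribosomal protein genes the members' median was -0.11. The part of the squamous genes in the values of the YAP and TEAD targets was not tested.

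**Figure D2:**
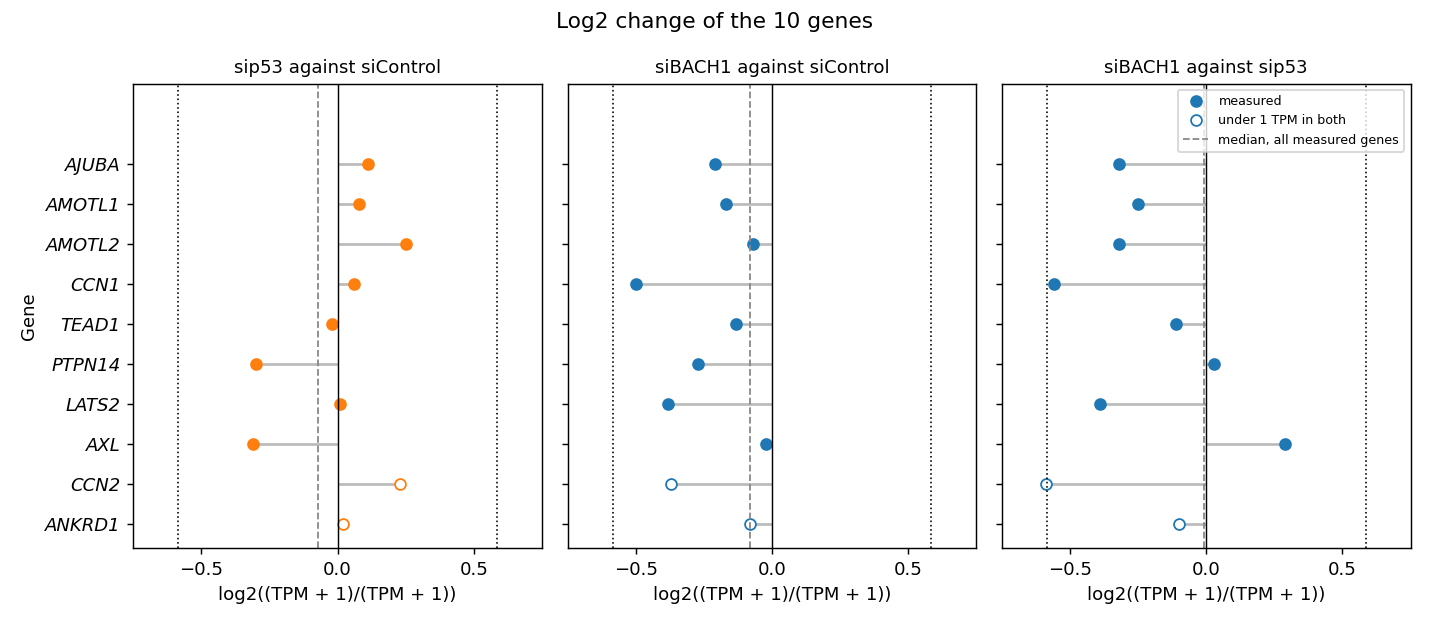
Log2 difference of each of the 10 genes for sip53 against siControl, siBACH1 against siControl and siBACH1 against sip53, with open points for genes under 1 TPM in both libraries, dotted lines at 1.5-fold and a dashed line at the median of all measured genes. All points of siBACH1 against siControl lie at or below -0.02, and no filled point passes a dotted line.

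Between the knockdowns, siBACH1 against sip53, 0 of the 8 measured members passed the 1.5-fold threshold, against 6.02% of the 12390 measured genes, and 0 passed 2-fold, against 1.54%. Here 6 of 8 differences were negative, and the median was -0.28, against 51.9% negative and a median of -0.01 over all measured genes. CCN1 was at -0.56, LATS2 at -0.39, AMOTL2 and AJUBA at -0.32, and AMOTL1 at -0.25. AXL, at 0.29, and PTPN14, at 0.03, were the members with a positive difference. CCN1 passed 1.5-fold with a pseudocount of 0.1 TPM or after correction for GC content and length, at -0.59 in both. CCN2, which was not counted because it lay under 1 TPM, had a log2 difference of -0.59 and a TPM ratio of 0.159.

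The 3 libraries had the same order for several members, a pattern noticed after the values were seen. CCN1, AMOTL1, AMOTL2, LATS2 and AJUBA were highest in sip53 and lowest in siBACH1, 5 of the 8 measured members, against 18.6% of the 12564 genes at 1 TPM or more in 1 or more libraries. CCN2 and ANKRD1 had the same order at levels under 1 TPM. The excess of sip53 over siControl was small in these genes, at most 0.25 on the log2 scale (AMOTL2, which was at 0.43 after correction for GC content and length). After that correction the count was 4 of 8, against 18.5% of all genes with a value. The comparisons with siControl share that library, and so do not give separate evidence of this order.

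Genes most like CCN1 were sought among the 7804 genes at 10 TPM or more in all libraries, by the distance between pairs of log2 differences against siControl. For CCN1 the nearest were VSNL1, which encodes a neuronal calcium sensor, the pseudogene LSM12P1, and HTRA1, which encodes a secreted serine protease. HTRA1 was at 18.5 TPM in sip53 and 12.6 TPM in siBACH1, against 18.0 TPM in siControl. No such genes are given for CCN2, because its log2 differences were set largely by the 1 TPM added to values under 1 TPM. Each match rests on 3 libraries, and many genes lie as close by so coarse a measure.

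Further YAP/TAZ-responsive genes from a published signature, none of them among the 10, also had no call against siControl. In sip53, 0 of 14 measured genes passed 1.5-fold (1 of 14 after rescaling to a median ratio of 1), with a median of 0.07 and 9 positive. In siBACH1, 0 of 14 passed, with a median of -0.13 and 9 negative (64.3%), close to the 66.1% over all measured genes. GADD45A, a stress-response gene, was at 36.1 TPM in siBACH1 and 51.8 TPM in siControl, a log2 difference of -0.51. CCDC80, which encodes a secreted matrix protein, was at 202 TPM in sip53 and 141 TPM in siControl, a difference of 0.51. F3, which encodes tissue factor, ran the other way, at -0.34 in sip53 and 0.29 in siBACH1.

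Between the knockdowns, 2 of those 14 genes passed 1.5-fold in siBACH1 against sip53, against 6.02% of all measured genes. F3 was higher, at 72.6 TPM in siBACH1 and 46.4 TPM in sip53 (log2 difference 0.64). ARHGEF17 was lower, at 3.94 TPM in siBACH1 and 7.07 TPM in sip53 (-0.71), a call lost with a pseudocount of 5 TPM. In contrast with the low CCN2, MYOF, a membrane repair gene of the same signature, was at 209 TPM in sip53 and 203 TPM in siBACH1, against 204 TPM in siControl. It was named after its values were seen.

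The coactivators themselves were well expressed. YAP1 was at 66.7 TPM in sip53 and 60.2 TPM in siBACH1, against 64.9 TPM in siControl, log2 differences of 0.04 and -0.11. WWTR1 was at 55.1 TPM in sip53 and 52.7 TPM in siBACH1, against 67.4 TPM in siControl, differences of -0.29 and -0.35. Of 7 measured genes among coactivators, the other TEADs and the TEAD-binding VGLL proteins, 1 was past 1.5-fold in sip53 and 0 in siBACH1. Over all measured genes the shares were 4.42% and 5.47%, so 1 of 7 is no result about this list. The gene past 1.5-fold was VGLL1, an epithelial TEAD cofactor. VGLL1 was at 5.70 TPM in sip53 and 4.75 TPM in siBACH1, against 3.20 TPM in siControl. Its log2 difference was 0.68 in sip53 and 0.45 in siBACH1. In sip53 VGLL1 did not pass 1.5-fold with a pseudocount of 5 TPM. VGLL4, a competitor of YAP for TEAD, was at 36.2 TPM in sip53 and 30.4 TPM in siBACH1, against 37.6 TPM in siControl.

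Upstream, 0 of 16 measured Hippo kinases and scaffolds passed 1.5-fold in either knockdown, against 4.42% and 5.47% of all measured genes, with medians of -0.01 in sip53, which turned to 0.06 after rescaling, and -0.16 in siBACH1. With a pseudocount of 0.1 TPM, 1 of the 16 was lower past 1.5-fold in siBACH1. The protocadherin FAT1, a cell-surface regulator of the pathway, was at 27.4 TPM in sip53 and 16.1 TPM in siBACH1, against 21.4 TPM in siControl. The difference of FAT1 in siBACH1 against sip53 was -0.73. In that comparison FAT1 was the only 1 of the 16 measured genes past 1.5-fold, against 6.02% of all measured genes. At that share, 1 of 16 is no result about this list. FRMD6, a scaffold gene, was at 38.1 TPM in siBACH1 and 50.6 TPM in siControl, a difference of -0.40. FAT4, a relative of FAT1, was at 1.01 TPM in siBACH1 and 1.76 TPM in siControl, a difference of -0.45 from values near the 1 TPM limit. TAOK1, a kinase upstream of the Hippo kinases, was at 22.3 TPM in sip53 and 17.7 TPM in siControl, a difference of 0.31. The core kinases STK3 and STK4, which encode MST2 and MST1, lay between -0.18 and 0.07 in both knockdowns.

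Actin and SRF/MRTF genes were included because the actin-responsive factor SRF also acts on CCN1 and CCN2. Of these, 0 of 15 measured genes passed 1.5-fold in sip53 and 0 of 14 in siBACH1, against 4.42% and 5.47% of all measured genes. With a pseudocount of 0.1 TPM, 1 of the 14 was higher past 1.5-fold in siBACH1. The median was 0.02 in sip53. In siBACH1 it was -0.10, which turned to 0.01 without mitochondrially encoded and ribosomal protein genes. TAGLN, an actin-binding smooth muscle protein gene, was at 7.72 TPM in sip53 and 6.63 TPM in siBACH1, against 5.23 TPM in siControl. TPM2, a tropomyosin gene, was at 13.7 TPM in both knockdown libraries and 10.3 TPM in siControl. MYL9, a myosin light chain gene, was at 11.5 TPM in sip53 and 9.84 TPM in siBACH1, against 8.98 TPM in siControl. ACTA2, which encodes smooth muscle actin, was at 2.27 TPM in siBACH1 and 1.04 TPM in sip53. Its difference between the knockdowns was 0.68, a call lost with a pseudocount of 5 TPM. ACTA2 was the only 1 of 15 measured genes of this list past 1.5-fold there, against 6.02% of all measured genes. At that share, 1 of 15 is no result about the list. In siBACH1, 9 of the 14 measured genes of this list were negative (64.3%), close to the 66.1% over all measured genes.

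**Figure D3:**
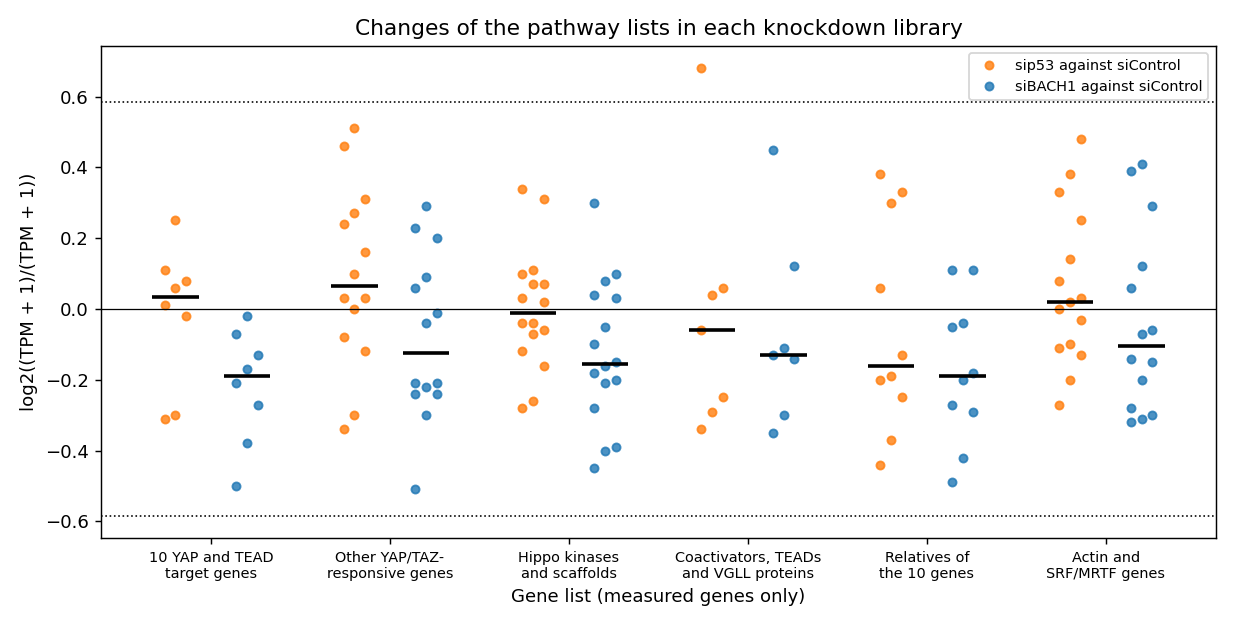
Log2 differences against siControl of measured genes in 6 lists, for sip53 (left of each pair) and siBACH1 (right), 1 point per gene, with black bars at list medians and dotted lines at 1.5-fold. VGLL1 in sip53, at 0.68, is the only point past a dotted line.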

How the data were processed

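RNA was sequenced from 3 Cal-33 libraries, 1 per siRNA, prepared using SMARTER chemistry per the labels' protocols. The authors deposited 1 table of TPM. Per the submitters' processing notes, bcl2fastq 2.20 and kallisto 0.44.0 were used. GRCh38 and 2 mouse builds are named there without a role. For the annotation, the summing to genes and strand handling, nothing was stated in the sources used. Pseudoalignment divides reads among similar transcripts, and TPM keeps no depth, so no counting interval is given.

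Log2 differences used a pseudocount of 1 TPM, measured genes had 1 TPM or more in 1 or both libraries, and calls were at 1.5-fold and 2-fold, in Python 3.11.15 with pandas 2.3.3. The calculation was tested on simulated data, where the planted changes were large, lay in well-expressed genes and were called at 2-fold. That test does not cover calls at 1.5-fold or genes near 1 TPM. Gene positions and promoter windows are RefSeq's (GRCh38.p14), and strands are GENCODE's. Named genes were all 10 members and up to 4 of each list with the largest absolute difference from siControl, plus the 3 nearest genes to CCN1. YAP1 and other genes named beside them are relatives or core genes given for context after their values were seen. The members were taken by name, but they and the lists were chosen with earlier results of these data known. The lists were written from general knowledge of the pathway: 15 YAP/TAZ-responsive genes of a published signature, 18 Hippo kinases and scaffolds, 9 coactivators, TEADs and VGLL proteins, 13 relatives of the members and 15 actin and SRF/MRTF genes. Alternatives changed the pseudocount, filter, scaling, threshold, and transcript GC content and length. The transcript level of the gene encoding p53 is not reported here.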

Additional observations from a re-analysis of the deposited data

How the results depend on the processing

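No paired analysis was possible because each group has 1 library and the result comes from no test. The counts of 0 members past 1.5-fold in sip53 and in siBACH1 against siControl held under all alternatives run. For CCN2 and ANKRD1 these alternatives could not show a fall from siControl. Without the filter, the 1 TPM pseudocount leaves no room for a 1.5-fold fall from their siControl levels. The smaller pseudocount was run only with the filter, which left them out. The plain TPM ratio of CCN2 in siBACH1 to siControl was 0.25. In siBACH1 against sip53 the count was 1 in place of 0 under 4 alternatives. CCN1 was at -0.59 with a pseudocount of 0.1 TPM and with the GC content and length correction. CCN2 was at -0.59 with no filter on low values. It was at -0.84 in TPM without 13 mitochondrially encoded and 88 ribosomal protein genes, because that scaling lifted it over 1 TPM in sip53. The members' medians kept their sign, between 0.03 and 0.13 in sip53, between -0.21 and -0.11 in siBACH1, and between -0.32 and -0.24 between the knockdowns. Signs of single members turned in siBACH1 for AMOTL2 (at most 0.02) and AXL (at most 0.05) under 3 alternatives (rescaling, removal of those genes, GC correction), and in sip53 for TEAD1 (0.05) under 2. Rescaling raised log2 ratios by 0.07 (sip53) and 0.08 (siBACH1), and by less in weakly expressed genes, where the pseudocount damps it. Log2 differences followed transcript GC content across genes, which are not independent replicates (Spearman -0.41 in sip53, -0.22 in siBACH1). The alternatives for the order of libraries were chosen after seeing the data. Unknown depth limits CCN2 and ANKRD1 most.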
